A study of Mus musculus with 2 samples.

Results

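The 10 genes described here, *Ltbp2*, *Id1*, *Id2*, *Id3*, *Smad7*, *Bambi*, *Tgfbi*, *Pmepa1*, *Skil* and *Tgfb1i1*, report on or restrain signaling by transforming growth factor β (TGF-β) and bone morphogenetic proteins (BMPs). They were taken by symbol from the 18193 genes that the array's annotation pairs with a probe set naming that gene alone. Together they had 19 probe sets, where a probe set is a group of short array probes for 1 transcript. Expression was measured in primary mouse embryonic fibroblasts (MEFs), cells grown out of embryos at embryonic day 12.5, of the genotypes BCL11B-/- and BCL11B+/+, both on the C57BL/6 strain. BCL11B is a zinc finger transcription factor, and the BCL11B-/- MEFs came from embryos lacking it. The cells of both genotypes were used at passage 2 and had received 12 h of adipocyte differentiation medium with 10% serum, 10 μM of the PPARγ agonist pioglitazone, 0.5 mM isobutylmethylxanthine, 1 μM dexamethasone and insulin at 10 μg/ml. Each genotype was measured on 1 array, so every difference below is that of 1 culture against another, no p-value is given, and whether embryos were pooled is not given in the sources used here.

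TGF-β and BMPs bind pairs of receptor kinases that phosphorylate SMAD proteins, which then enter the nucleus and switch genes on and off. Several of the genes they induce feed back on the pathway: SMAD7 blocks the receptors, BAMBI is a decoy receptor without a kinase, PMEPA1 holds SMADs at membranes and SKIL is a corepressor that binds SMADs. The ID proteins are BMP-induced helix-loop-helix proteins that lack a DNA-binding region and keep E proteins from DNA. In fibroblasts and preadipocytes TGF-β is known to restrain adipocyte formation, while BMPs can commit precursors to the adipocyte lineage.

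Promoter sequence from RefSeq was available here for 4 of the 10 genes. They include *Ltbp2* and *Id3*, the genes with the highest differences, and *Id2* and *Tgfbi*, the genes with the smallest, and are shown to set both kinds side by side. Each sequence is the 250 bases before the transcription start on build GRCm38.p6. *Ltbp2* lies at chr12:84876492-84876741 and *Id2* at chr12:25096093-25096342, both on the minus strand. *Id3* lies at chr4:136143572-136143821 and *Tgfbi* at chr13:56609336-56609585, both on the plus strand. Capitals mark CAGAC, a short site bound by SMAD proteins, on either strand (GTCTG when read on the other), and GGCGCC, a site bound by the BMP-activated SMAD1 and SMAD5.
Ltbp2: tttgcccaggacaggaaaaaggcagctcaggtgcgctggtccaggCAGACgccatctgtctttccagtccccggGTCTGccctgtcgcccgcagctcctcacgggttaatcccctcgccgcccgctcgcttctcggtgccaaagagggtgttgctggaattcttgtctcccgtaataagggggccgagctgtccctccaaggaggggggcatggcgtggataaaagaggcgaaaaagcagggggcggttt
Id3: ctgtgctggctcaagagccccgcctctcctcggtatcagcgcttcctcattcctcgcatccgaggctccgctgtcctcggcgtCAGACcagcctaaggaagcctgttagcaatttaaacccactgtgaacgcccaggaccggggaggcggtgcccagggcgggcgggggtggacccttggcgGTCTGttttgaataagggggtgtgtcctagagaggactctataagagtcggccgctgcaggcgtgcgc
Id2: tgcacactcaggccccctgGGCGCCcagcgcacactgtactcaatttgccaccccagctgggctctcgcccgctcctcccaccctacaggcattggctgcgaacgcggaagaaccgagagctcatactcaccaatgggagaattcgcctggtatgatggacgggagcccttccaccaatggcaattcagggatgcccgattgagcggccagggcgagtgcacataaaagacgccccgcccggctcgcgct
Tgfbi: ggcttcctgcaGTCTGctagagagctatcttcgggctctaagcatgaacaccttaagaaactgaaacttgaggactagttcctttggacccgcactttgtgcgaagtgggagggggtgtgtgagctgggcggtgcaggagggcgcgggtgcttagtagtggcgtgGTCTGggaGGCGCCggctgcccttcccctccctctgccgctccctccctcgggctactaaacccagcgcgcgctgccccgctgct

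Letters were searched in windows of 300 bases that also take in 50 bases after the start. *Ltbp2* had 3 CAGAC matches, first bases at −205, −176 and 29 from the start, of which the last lies outside the printed stretch. *Id3* had 2, at −167 and −68, and *Tgfbi* had 2, at −239 and −85. No CAGAC was found in the *Id2* window. Of 32851 promoters of the same length, 49.6% held this motif, so it is common. GGCGCC was found once in *Id2*, at −231, and once in *Tgfbi*, at −77, against 11.9% of all promoters. The longer SMAD palindrome GTCTAGAC, present in 0.213% of promoters, and the cAMP response element TGACGTCA, in 1.79%, were in none of the 4 windows. CANNTG, the E-box to which E proteins bind, occurred at 2 places in *Ltbp2*, at 1 in *Id2* and not in *Id3* or *Tgfbi*, and in 72.3% of all promoters. All 4 windows were rich in G and C, with 60.0 to 63.3% against a median of 52.7% over all promoters. With 4 windows these matches are a description of letters only.

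The knockout itself was visible in the mRNA, since the 4 *Bcl11b* probe sets read 2.26- to 2.97-fold lower in BCL11B-/- than in BCL11B+/+ MEFs. The study detected no BCL11B protein in BCL11B-/- MEFs. The mRNA signal did not vanish, and these probe sets still read 5.32 to 7.40 there, beside 6.79 to 8.77 in BCL11B+/+ MEFs. The position of these probes relative to the deleted part is not given in the sources used here. The values are log2 expression after robust multi-array average (RMA), a method that makes the distributions of the arrays alike, and the medians were 5.28 for both arrays. Where a gene had several probe sets the brightest one stood for it, and 12331 genes with a mean of at least 5 log2 units were counted. All 10 genes and all 19 of their probe sets passed this filter, with means between 8.02 and 11.80 for the representing probe sets. The technical yardstick used below is the scatter of the difference among probe sets that read the same gene, 0.145 log2 units (pooled SD, 5543 genes). It holds no variation between cultures. All 8 fibroblast markers, among them the collagen genes *Col1a1* and *Col1a2*, were above the filter, with a median of 12.10 in BCL11B-/- and 12.41 in BCL11B+/+ MEFs, and 2 of them, *Dcn* and *Thy1*, were at least 1.5-fold lower.

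Of the 10 genes, BCL11B-/- MEFs had 1 that was higher by 1.5-fold or more, *Ltbp2*, and 1 that was lower by as much, *Bambi*, while 8 were neither. Among all counted genes 1.61% were at least 1.5-fold higher and 1.75% at least 1.5-fold lower, so 1 of 10 in each direction rests on a single gene each and is not read as a property of the group. By the smaller measure of the yardstick, 5 of the 10 genes were higher by more than 0.145 and 2 were lower by more, against 19.6% and 18.5% of all counted genes. These counts rest on the brightest probe sets. As means over all their probe sets, *Smad7*, *Pmepa1* and *Skil* differed by 0.12, 0.11 and −0.05, within the yardstick. The median difference over the 10 genes was 0.14 log2 units, and over all counted genes it was 0.00. Differences are always BCL11B-/- minus BCL11B+/+ MEFs.

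**Figure D1:**
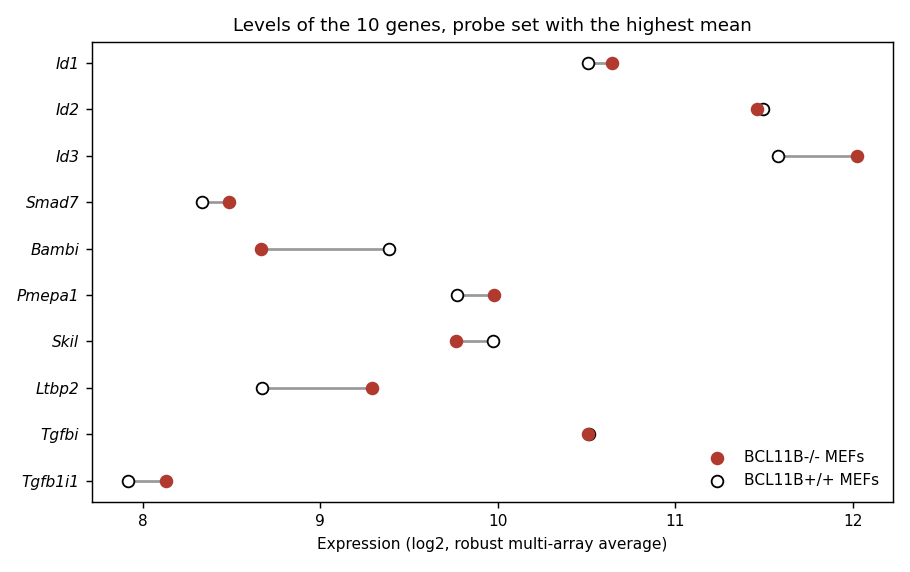
Expression (horizontal axis, log2 after RMA) of the 10 genes (vertical axis) in BCL11B-/- MEFs (filled circles) and BCL11B+/+ MEFs (open circles), 1 array each, with no error to draw. The circles lie farthest apart for *Bambi*, at 8.66 in BCL11B-/- and 9.38 in BCL11B+/+ MEFs, followed by *Ltbp2* and *Id3*, and positions of different genes are not comparable, since each probe set has its own brightness.

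Among the ID genes, *Id3* was higher in BCL11B-/- MEFs while *Id1* and *Id2* differed by less than the yardstick. *Id3* read 12.02 in BCL11B-/- MEFs and 11.58 in BCL11B+/+ MEFs, a difference of 0.45 log2 units or 1.36-fold. This is 3.08 times the yardstick but short of 1.5-fold, and it rests on 1 probe set. Of all counted genes 6.06% differed by as much or more in either direction. *Id1* read 10.64 in BCL11B-/- MEFs and 10.51 in BCL11B+/+ MEFs, also on 1 probe set, and its difference of 0.13 was 0.92 times the yardstick. *Id2* was covered by 3 probe sets, which read 11.46, 10.15 and 7.12 in BCL11B-/- MEFs and 11.50, 10.12 and 7.22 in BCL11B+/+ MEFs. Their differences of −0.03, 0.03 and −0.10 lay on both sides of 0 and all within the yardstick. The remaining ID gene, *Id4*, which was named after its values were seen, differed by 0.01, with its 3 probe sets between −0.05 and 0.01. Of the 4 relatives *Id3* alone lay beyond the yardstick, where 19.6% of all counted genes were higher and 18.5% lower by more than it. *Id1* would also pass a smaller yardstick of 0.106, taken from brighter probe sets. With 1 array per genotype the gap between *Id3* and the others has no test.

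The E proteins and other helix-loop-helix factors on which ID proteins act had differences below 0 in 5 of 5 counted genes, with a median of −0.18. *Tcf3* and *Twist1*, each at −0.11, lay within the yardstick. *Tcf4* and *Tcf12*, which encode E proteins, also had dimmer probe sets above 0, up to 0.15 and 0.17. Their means over all probe sets, −0.05 and −0.13, were within the yardstick too. *Twist2*, a mesenchymal factor that restrains differentiation, was the 1 gene of the list past 1.5-fold, at 9.00 in BCL11B-/- MEFs and 9.63 in BCL11B+/+ MEFs, which is 1.55-fold lower. The muscle factor *Myod1* was under the filter. Over all counted genes 48.8% lay above 0.

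The feedback inhibitors differed in direction, and *Bambi* alone passed 1.5-fold. *Bambi* was the lowest of the 10 genes, at 8.66 in BCL11B-/- MEFs and 9.38 in BCL11B+/+ MEFs. Its difference of −0.72 is 1.65-fold lower and left 60.7% of the BCL11B+/+ level. It ranked 137th from the lowest of the counted genes, on 1 probe set, and 2.10% of all genes differed by as much or more in either direction. *Smad7* read 8.49 in BCL11B-/- MEFs and 8.33 in BCL11B+/+ MEFs on the brighter probe set, a difference of 0.15 that is 1.05 times the yardstick. The dimmer probe set read 8.24 in BCL11B-/- MEFs and 8.16 in BCL11B+/+ MEFs, a difference of 0.08, so both lay above 0 and close to the yardstick. *Pmepa1* differed by 0.21, with 9.98 in BCL11B-/- MEFs and 9.77 in BCL11B+/+ MEFs. Its dimmer probe sets differed by 0.11 and 0.01, and the mean over all 3 was 0.11, within the yardstick. *Skil* was lower, at 9.77 in BCL11B-/- MEFs and 9.97 in BCL11B+/+ MEFs, a difference of −0.21. Its second probe set, near the filter at 5.29 in BCL11B-/- MEFs and 5.19 in BCL11B+/+ MEFs, differed by 0.10 the other way, and the mean of both was −0.05. The sign of *Skil* thus depended on the probe set.

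**Figure D2:**
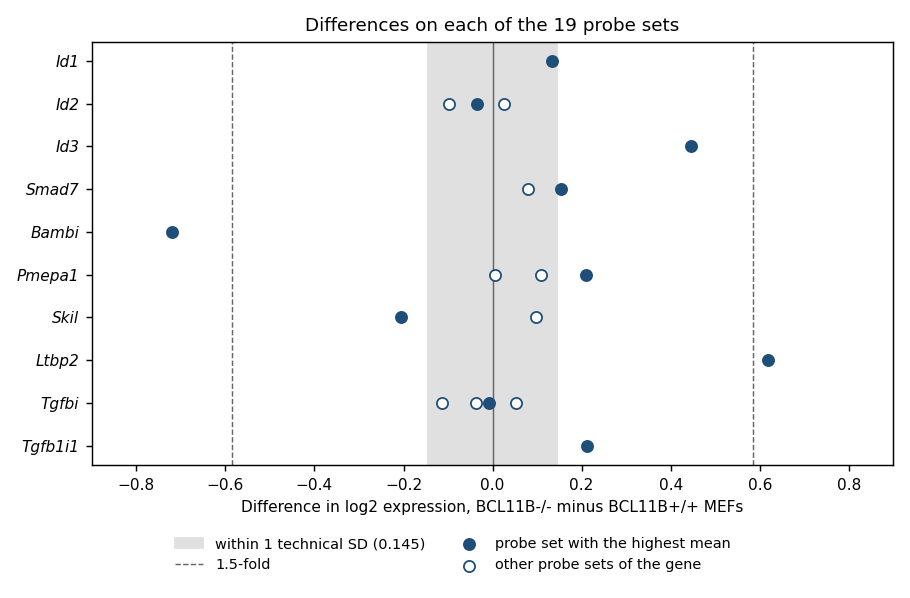
BCL11B-/- minus BCL11B+/+ MEFs in log2 expression (horizontal axis) on each of the 19 probe sets of the 10 genes (vertical axis). Filled points are the probe sets with the highest mean, open points the others, the grey band is 1 pooled technical SD (0.145) on each side of 0 and dashed lines mark 1.5-fold. In all, 12 of the 19 probe sets lie in the band, and *Ltbp2* and *Bambi*, with 1 probe set each, lie beyond the dashed lines.

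The last 3 genes belong to the matrix and to focal adhesions. *Ltbp2* encodes a fibrillin-like matrix protein that, unlike other members of its family, does not bind latent TGF-β. On its 1 probe set it read 9.29 in BCL11B-/- MEFs and 8.67 in BCL11B+/+ MEFs. The difference of 0.62 is 1.53-fold higher, just past the 1.5-fold rule of 0.58 log2 units, and ranked 177th from the highest of the counted genes. No other probe set of the gene was read, and 3.04% of all genes differed by as much or more. *Tgfbi*, a secreted adhesion protein named for its induction by TGF-β, read 10.51 in BCL11B-/- MEFs and 10.52 in BCL11B+/+ MEFs. Its 4 probe sets differed by −0.11 to 0.05, all within the yardstick, so the best-covered of the 10 genes was also the one with the smallest difference. *Tgfb1i1* (Hic-5), a focal adhesion protein that also coactivates nuclear receptors, read 8.13 in BCL11B-/- MEFs and 7.92 in BCL11B+/+ MEFs on 1 probe set. That difference of 0.21 is 1.46 times the yardstick and 1.16-fold.

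**Figure D3:**
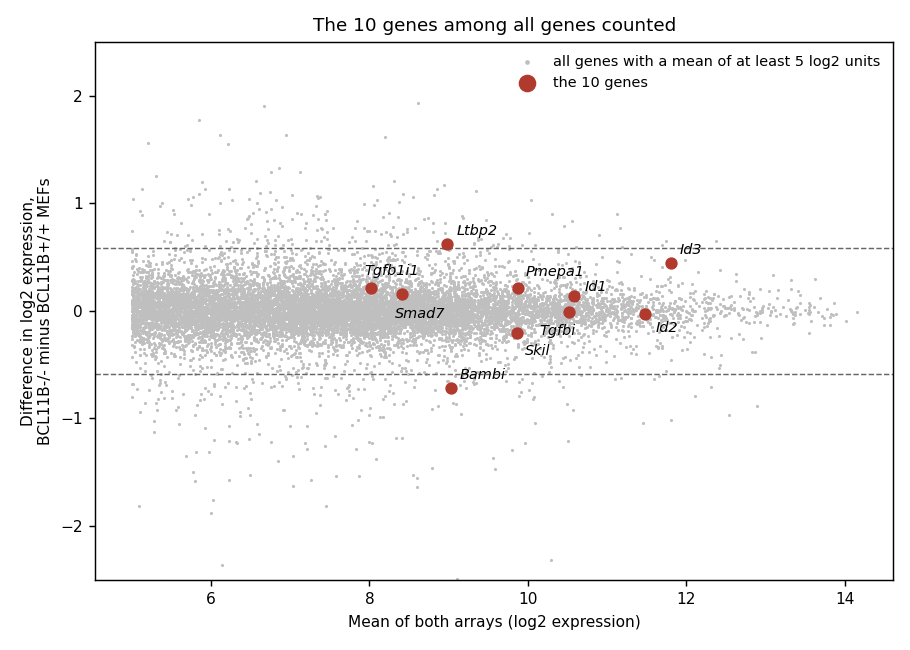
BCL11B-/- minus BCL11B+/+ MEFs in log2 expression (vertical axis) against the mean of both arrays (horizontal axis, log2) for the 12331 counted genes (grey) and the 10 genes (red), with dashed lines at 1.5-fold. *Bambi* and *Ltbp2* lie beyond the lines, *Id3* lies inside them at 0.45, and 3 grey points fall outside the drawn range of 2.5 log2 units.

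The study ranked genes by the weighted average difference, which multiplies the difference by relative expression so that bright genes rank higher. For these ranks a gene took the probe set with the largest score of either sign, not the brightest. The study does not say how it handled several probe sets of a gene, so its own ranks may differ. On this scale *Id3* ranked 125th and *Ltbp2* 130th from the highest of 18193 genes, and *Bambi* 102nd from the lowest. The next highest were *Pmepa1*, ranked 1025th, *Tgfb1i1*, ranked 1557th, *Id1*, ranked 1869th, and *Smad7*, ranked 2329th. From the lowest, *Skil* ranked 1079th, *Tgfbi* 3324th and *Id2* 4790th, with *Tgfbi* and *Id2* placed by their dimmest probe sets, which differed by −0.11 and −0.10.

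Of 126 further pathway genes named by role, 113 had a probe set naming that gene alone and 105 passed the filter. Of these, 7 were at least 1.5-fold higher in BCL11B-/- MEFs and 6 at least 1.5-fold lower, which is 6.67% and 5.71%, beside 1.61% and 1.75% of all counted genes. The lists were chosen with results of these arrays known, and their median difference was 0.04. No list median reached 1.5-fold, and the genes that did stood on both sides of 0.

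Among the ligands, *Tgfb3* was 1.72-fold higher, at 8.68 in BCL11B-/- MEFs and 7.90 in BCL11B+/+ MEFs. The other TGF-β isoforms, named after their values were seen, were not: *Tgfb2* differed by −0.55, with all 4 probe sets between −0.55 and −0.45, and *Tgfb1* by −0.12. *Bmp5* was 2.11-fold higher, at 7.56 in BCL11B-/- MEFs and 6.48 in BCL11B+/+ MEFs, and its 3 probe sets differed by 0.75 to 1.30. It was the 1 of 6 counted BMP and GDF ligands past 1.5-fold. *Inhbb*, which encodes an activin and inhibin subunit, was 1.66-fold lower on its brighter probe set, while its dimmer one differed by −0.03.

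The receptors spanned a smaller range of differences than the ligands. On their brightest probe sets none of 8 TGF-β and activin receptors reached 1.5-fold, with the endothelial coreceptor *Eng* highest at 0.34 and the TGF-β coreceptor *Tgfbr3* lowest at −0.50. The dimmer *Tgfbr3* probe set differed by −0.63, past 1.5-fold. *Tgfbr2*, named after its values were seen, differed by −0.35, with its 3 probe sets between −0.35 and −0.22. Of these 8 receptors 3 lay above 0, and the list median was −0.11. Among 6 BMP receptors and coreceptors the range ran from −0.42 for *Rgma* to 0.15 for *Acvr1*. The 5 counted receptor-regulated and common SMADs were between −0.15 for *Smad5* and 0.18 for *Smad3*. Of 8 genes that bind or activate latent TGF-β none passed 1.5-fold, from −0.28 for *Nrros* to 0.30 for *Ltbp1*, a relative of *Ltbp2* that does bind latent TGF-β.

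The lowest differences of the pathway were those of secreted antagonists. *Chrdl1*, a chordin-like BMP antagonist, read 6.36 in BCL11B-/- MEFs and 7.71 in BCL11B+/+ MEFs, which is 2.54-fold lower, and its 4 probe sets differed by −1.47 to −0.64. *Sostdc1*, an antagonist of BMP and Wnt ligands, read 5.32 in BCL11B-/- MEFs and 6.64 in BCL11B+/+ MEFs, 2.49-fold lower, with −0.56 on its second probe set. The other 7 counted antagonists did not reach 1.5-fold, and the highest of them, the BMP antagonist *Grem1*, singled out after its value was seen, differed by 0.56. Inside the cell, the 9 other negative regulators of SMADs were between −0.03 for *Tgif1* and 0.44 for *Smad6*, the BMP-side counterpart of *Smad7*.

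**Figure D4:**
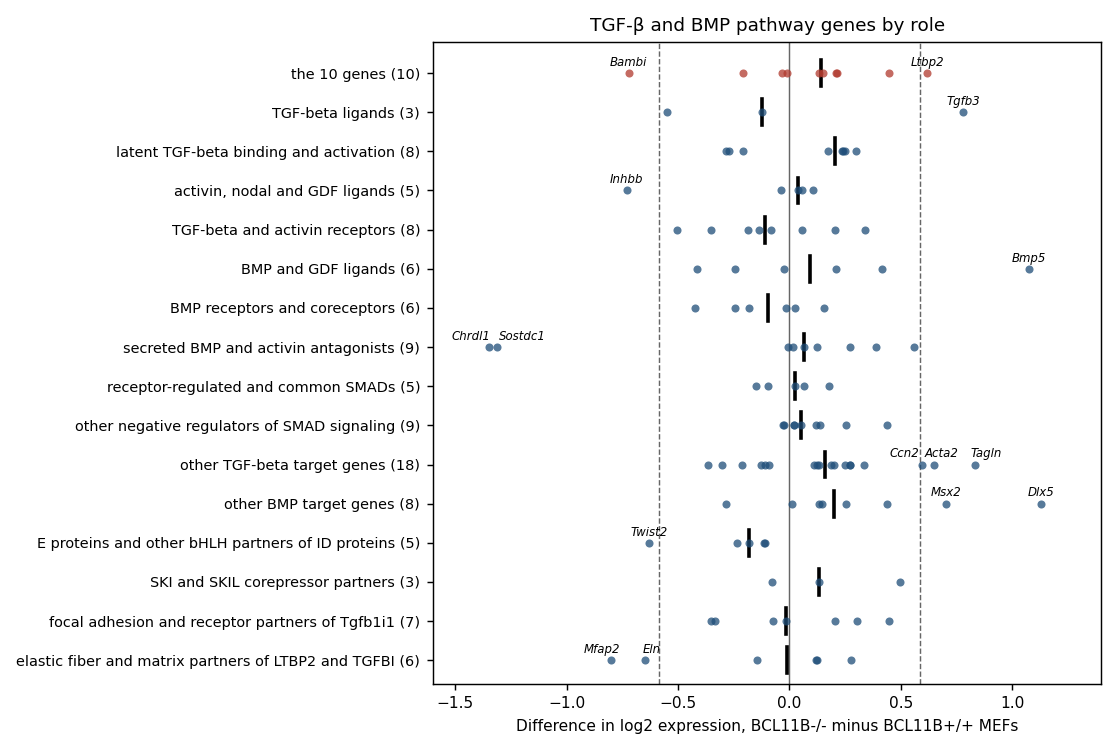
BCL11B-/- minus BCL11B+/+ MEFs in log2 expression along the horizontal axis, for the 10 genes (red, top) and for the counted genes of 15 pathway lists (blue, number of genes in brackets), with black bars at list medians and dashed lines at 1.5-fold. Named points are past 1.5-fold, from *Chrdl1* at −1.35 to *Dlx5* at 1.13, and *Acta2* and *Msx2* change sign on dimmer probe sets.

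In the 2 lists of other TGF-β and BMP target genes, those past 1.5-fold were all higher. This depends on how genes were assigned to lists, and *Bambi*, an induced feedback gene outside them, was lower. Among all counted genes 1.61% were at least 1.5-fold higher and 1.75% at least 1.5-fold lower. Of 18 counted TGF-β targets 3 were at least 1.5-fold higher and none was lower, with a median of 0.16. They were *Tagln* and *Acta2*, which encode cytoskeletal proteins of smooth muscle, with 0.83 and 0.65, and the matricellular gene *Ccn2* with 0.60. The dimmer *Acta2* probe sets did not share this, and the difference was −0.07 once probe sets marked by suffix as matching several transcripts were set aside. Of 8 counted BMP targets 2 were higher, the homeobox genes *Dlx5* with 1.13 and *Msx2* with 0.70, and none was lower. Both were dim in BCL11B+/+ MEFs, near the filter. *Dlx5* read 6.79 in BCL11B-/- MEFs and 5.66 in BCL11B+/+ MEFs, on 1 probe set that carries such a suffix. *Msx2* read 6.07 in BCL11B-/- MEFs and 5.36 in BCL11B+/+ MEFs. The second *Msx2* probe set differed by −0.08.

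Of 6 counted matrix partners of LTBP2 and TGFBI none was higher and 2 were lower, while *Ltbp2* itself was higher. *Mfap2*, a microfibril gene, read 9.68 in BCL11B-/- MEFs and 10.48 in BCL11B+/+ MEFs, and *Eln*, which encodes elastin, read 8.66 in BCL11B-/- MEFs and 9.31 in BCL11B+/+ MEFs. They were 1.74- and 1.57-fold lower, but the second *Eln* probe set differed by −0.25 and the mean of both, −0.45, fell short of 1.5-fold. Partners of *Tgfb1i1* at focal adhesions lay between −0.35 for *Ptk2b* and 0.45 for *Vcl*, and 0 of 7 passed 1.5-fold. The 3 counted corepressor partners of SKI and SKIL were between −0.08 for *Sin3a* and 0.50 for *Sap30*.

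Markers of other cell types and of sex differed between the 2 cultures as well, and in bulk RNA fewer cells of a type and less RNA per cell cannot be told apart. Of 8 smooth muscle markers 5 were at least 1.5-fold higher and none was lower, and their summed linear signal was 9693 in BCL11B-/- MEFs and 5996 in BCL11B+/+ MEFs. *Acta2* and *Tagln* belong to that list too. Of 5 counted chondrocyte markers 4 were higher, led by the cartilage matrix gene *Comp* with 1.63, with sums over 8 genes of 916 in BCL11B-/- MEFs and 469 in BCL11B+/+ MEFs, while *Col11a2*, *Matn1* and *Cnmd* were under the filter. Of 11 macrophage markers 9 were lower and none higher, with sums of 2627 in BCL11B-/- MEFs and 4596 in BCL11B+/+ MEFs, and the brightest, *Lyz2*, was at 10.11 in BCL11B-/- MEFs and 11.03 in BCL11B+/+ MEFs. Among 5 counted adipocyte markers 2 were at least 1.5-fold lower, *Lpl* by 0.97 and *Pparg* by 0.71 log2 units. *Cebpa*, at −0.53, was lower but short of 1.5-fold, and the median of the list was −0.53. *Adipoq* and *Fabp4* lay above 0, at 0.56 and 0.31, also short of 1.5-fold. The 4 *Fabp4* probe sets ran from −0.26 to 0.31, with a mean of 0.06. Of 5 counted neural markers 2 were higher. No epithelial or mesothelial marker of 6 counted passed 1.5-fold, and 1 each of 6 endothelial and 6 skeletal muscle markers was above the filter, *Kdr* with 0.14 and *Actc1* with −0.81. *Xist*, the RNA of the inactive X chromosome, read 4.80 in BCL11B-/- MEFs and 10.80 in BCL11B+/+ MEFs. The 3 Y-linked genes measured were higher in BCL11B-/- MEFs by 0.81 to 1.08 on their brightest probe sets, and by as little as 0.16 on others. In BCL11B+/+ MEFs they were above the filter too, with *Eif2s3y* at 7.89, *Kdm5d* at 6.84 and *Uty* at 6.80. Whether the BCL11B+/+ culture held cells of both sexes was not tested. The part of these markers in the differences of *Ltbp2*, *Bambi*, *Id3* and the pathway genes was not tested, and sex of the embryos and genotype cannot be told apart with 1 array each.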

How the data were processed

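Total RNA of MEFs at 12 h of adipocyte differentiation was labelled and hybridized by the authors to Affymetrix mouse expression arrays, 1 per genotype. The deposited values are log2 expression, made by the authors from the scanned probes with RMA (background correction, normalization between arrays and summary of probes), run in R 3.0.3 by the processing notes of the submitters. This normalization hides a change of total mRNA, and the differences of dim genes are drawn toward 0 by background.

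There were 45101 probe sets, 64 of them controls, which were left out. Annotation of the platform named 1 gene for 34945 of the others, several for 932 and none for 9211 of all probe sets. All 10 symbols matched RefSeq by Entrez identifier. The brightest probe set stood for each gene, except in ranks over 18193 genes. Genes with a mean of at least 5 were counted at 1.5-fold, with no p-value. The authors' ranking, the weighted average difference, was recomputed over 18193 genes, each by whichever probe set scored farthest from 0, as were ranks by plain difference. Genes named are the 10 members, *Bcl11b*, and of each pathway list those past 1.5-fold or else its highest and lowest, and of marker lists *Xist*, *Acta2*, *Comp* and *Lyz2*. *Tcf3*, *Tcf4*, *Tcf12*, *Twist1*, *Myod1*, *Tgfb1*, *Tgfb2*, *Tgfbr2*, *Grem1*, *Id4* and the other marker genes were named outside this rule, after their values were seen. Members and lists were chosen with earlier results of these data known. Counting was checked on simulated data whose noise was the technical yardstick alone, without variation between cultures. That check required planted differences well past 1.5-fold to be found, not those at 1.5-fold. Alternatives were other probe sets, filters and thresholds, a loess fit (span 0.4) and median centring. Protein sequences were not used here. Python 3.11.15, numpy 2.4.6, pandas 2.3.3, statsmodels 0.14.6 and matplotlib 3.10.9 were used.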

Additional observations from a re-analysis of the deposited data

How the results depend on the processing

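The count of 1 gene higher and 1 lower among the 10 stayed the same with the mean over all probe sets, with only probe sets without a suffix (where *Id1* has no value), with the loess fit or the median subtracted, without a filter and with a filter at 7. Most of these settings could not have changed it. *Ltbp2* and *Bambi* have 1 probe set each, without a suffix, and all 10 means were at least 8.02. The loess fit lay between −0.011 and 0.014, and median subtraction left the 10 differences as they were. At 1.2-fold 2 of the 10 were higher and 1 was lower, where 8.82% and 7.8% of all counted genes passed. At 2-fold 0 were higher and 0 lower, beside 0.349% and 0.503%. Pathway genes numbered 21 higher and 18 lower at 1.2-fold and 2 higher and 2 lower at 2-fold. Over all genes these counts were 1087 and 962 at 1.2-fold, 43 and 62 at 2-fold, and 112 and 124 at 1.5-fold with a mean of at least 7. A higher threshold or filter lowers a count by its own construction.

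Of 39 alternative differences of the 10 genes 38 moved by less than the technical SD. The exception was *Skil*, at −0.05 as the mean of its probe sets. Most of the 39 could not have moved further, since 5 of the 10 genes have 1 probe set. The loess and median steps subtracted far less than the technical SD, for these genes and for the pathway genes. Of 51 for the 13 pathway genes past 1.5-fold, 44 moved by less, 6 by more, and *Acta2* turned to −0.072 without suffixed probe sets. The cause was not tested. As means over all probe sets, *Inhbb*, *Msx2* and *Eln* fell short of 1.5-fold with −0.38, 0.31 and −0.45, and *Acta2* with 0.19. Ranked by plain difference, each gene by its probe set with the largest difference among 18193 genes, *Bambi* was 195th from the lowest, and *Ltbp2* 251st and *Id3* 662nd from the highest, which is not comparable with ranks among the 12331 counted genes on brightest probe sets. With a yardstick from probe sets of a mean of at least 7 (0.106), added after seeing the data, 8 of the 10 genes lay beyond it instead of 7. The gene added was *Id1*, at 0.13. Over all counted genes the median size of the difference was 0.108, so most of them lay beyond this smaller yardstick too. No paired analysis was possible because each genotype has 1 array. The number of arrays limits the precision.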
